A study of Mus musculus with 9 samples.

Results

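Genes that shape the actin cortex and the microtubules of non-muscle cells were compared between the stroma of invasive prostate cancer and the stroma of prostate intraepithelial neoplasia (PIN). The 10 genes are Marcks, Marcksl1, Ezr, Msn, Gsn, Tmsb10, Tmsb4x, Myh9, Septin11 and Stmn1. They were chosen with their difference between these groups already known, so their values in that comparison are a description, no p-value is given for them, and counts of how many passed a threshold only describe the choice. Every spotted cDNA clone that carries 1 of these symbols was taken, which gave 18 clones of the 17207 clones tested and 10 genes of the 8106 genes tested. A further clone that carries the symbols of both Sytl3 and Ezr was kept apart.

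Male FVB mice of the CR2-TAg line express SV40 large T antigen under cryptidin-2 regulatory elements in neuroendocrine cells of the prostate, and both groups carry this transgene. Stroma was taken by laser capture microdissection from 6 mice with invasive cancer at 24 weeks of age and from mice with PIN at 10 weeks, of which 3 arrays (PIN replicates 2, 3 and 4) were used and the remaining PIN array was not analysed here. Each array holds 1 mouse. Per the paper, stroma was cut up to a larger distance from the epithelium in invasive than in PIN tissue. Age, stage and this distance changed together and cannot be told apart. Whether antigen-bearing cells were present in the dissected stroma was not tested, and neuroendocrine markers are described below. The amplified RNA of each mouse was labelled with Cy5 and a pool of the PIN samples with Cy3, on every array the same way round. A value is therefore the log2 ratio of 1 mouse over the PIN pool, a value of 1 is a 2-fold excess over the pool, and every PIN sample was itself a component of the pool it was read against. The ratios hold no absolute levels, and levels of different genes cannot be compared.

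The arrays held 17189 to 17206 values each. Over all clones the correlation between arrays was 0.256 to 0.769 among invasive arrays, 0.176 to 0.672 among PIN arrays and 0.218 to 0.529 between the groups. PIN replicate 4 stood apart from the other PIN arrays, with 0.176 and 0.189, and the difference of each of the 10 genes is also given without it. In tissue of mixed cells, fewer cells of a type and less RNA per cell cannot be told apart.

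Animal cells build their shape from a cortical actin mesh under the plasma membrane. MARCKS proteins bind actin and membrane phosphoinositides and leave the membrane when protein kinase C phosphorylates them or calmodulin binds them. ERM proteins (ezrin, radixin and moesin) tie actin filaments to membrane proteins, ezrin being typical of epithelia and moesin of leukocytes and endothelium. Beta-thymosins hold actin monomers in reserve, gelsolin severs and caps filaments, non-muscle myosin II pulls on them, septins form filaments that scaffold the cortex, and stathmin takes up tubulin dimers and destabilizes microtubules. In reactive tumor stroma this machinery is known for serving the movement and contraction of fibroblasts and infiltrating leukocytes.

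In invasive cancer stroma 8 of the 10 genes had a higher mean ratio than in PIN stroma and 2, Ezr and Gsn, a lower one. All 10 were called by limma at the study's false discovery rate of 15%, where 3.75% of all genes were called higher and 1.89% lower. In 6 genes the lowest invasive array exceeded the highest PIN array, as in 4.86% of all genes, and in 2 genes the reverse held, as in 2.99%. Marcksl1 and Msn overlapped between the groups. The genes were selected on this contrast, so these counts say only what was chosen. By size of difference Stmn1 stood at place 14 of the 8106 genes, Septin11 at 35, Marcks at 44, Ezr at 72, Gsn at 73, Myh9 at 85, Tmsb10 at 209, Msn at 321, Tmsb4x at 374 and Marcksl1 at 460. Closest to the limit for a call was Msn. Without PIN replicate 2 limma called 5 of the 10, and Gsn, Marcksl1, Msn, Stmn1 and Tmsb4x lost their call, and without PIN replicate 3 it called 7, with Marcksl1, Msn and Stmn1 lost.

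Promoter letters are shown for both ERM genes, which differed in opposite directions, for Gsn, the other gene with lower ratios, and for Myh9, whose window holds the most copies of the motif searched. They are the 250 bases before the annotated start site in RefSeq (mouse build GRCm38.p6), written 5′ to 3′ along the gene, with GGGCGG or its reverse complement, the core of the GC box, in capitals. Gsn has several annotated starts, and the most upstream is shown.
Ezr chr17:6782781-6783030 (minus strand): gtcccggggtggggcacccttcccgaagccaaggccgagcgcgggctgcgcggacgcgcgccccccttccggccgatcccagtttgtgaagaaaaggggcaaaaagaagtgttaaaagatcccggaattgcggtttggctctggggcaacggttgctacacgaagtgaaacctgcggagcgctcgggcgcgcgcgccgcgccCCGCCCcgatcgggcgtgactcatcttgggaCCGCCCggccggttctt
Msn chrX:96095795-96096044 (plus strand): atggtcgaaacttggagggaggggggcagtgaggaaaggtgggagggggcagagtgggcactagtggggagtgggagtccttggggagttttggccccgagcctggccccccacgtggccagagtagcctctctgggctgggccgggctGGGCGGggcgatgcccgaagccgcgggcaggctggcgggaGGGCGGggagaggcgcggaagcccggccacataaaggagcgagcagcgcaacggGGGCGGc
Gsn chr2:35256109-35256358 (plus strand): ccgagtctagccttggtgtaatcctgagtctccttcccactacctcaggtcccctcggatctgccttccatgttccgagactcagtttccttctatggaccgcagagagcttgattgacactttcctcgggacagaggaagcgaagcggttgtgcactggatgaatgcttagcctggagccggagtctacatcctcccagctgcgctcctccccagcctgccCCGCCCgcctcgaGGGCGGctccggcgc
Myh9 chr15:77842176-77842425 (minus strand): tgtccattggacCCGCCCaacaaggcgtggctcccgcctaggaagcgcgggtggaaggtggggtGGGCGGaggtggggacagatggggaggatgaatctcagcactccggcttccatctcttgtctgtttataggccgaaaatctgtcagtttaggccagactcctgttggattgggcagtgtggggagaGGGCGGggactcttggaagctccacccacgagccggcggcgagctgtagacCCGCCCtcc
RefSeq held 12 promoter windows of 300 bases (250 before the start and 50 after) for 8 of the 10 genes, with none for Marcks and Stmn1 in the table used. Gsn and Tmsb10 each had several windows, and those of Tmsb10 overlapped in part, so the windows are not independent. GGGCGG, searched on both strands, was present in all 12 windows and in 35.7% of all 32851 windows of this length. It was thus found for genes with higher and with lower ratios alike. The base composition of these windows goes the same way: G and C made up 52.7% to 71.7% of each, and the median over all windows was 52.7%. The CArG box, the serum response element found at many contractile actin genes, was matched in 0 of the 12 windows and in 1.63% of all windows. TATAAA was matched in 1 window, that of Myh9 (13.6% of all), and CCAAT in 4 windows of 3 genes (37.4% of all). A match is a sequence of letters and no evidence of binding.

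Marcks (chr10:37133243-37138926), which encodes the myristoylated protein kinase C substrate that links actin to the membrane, had ratios of 1.93 to 2.51 on the invasive arrays with a median of 2.08. On PIN replicates 2, 3 and 4 they were -0.06, 0.13 and 0.08. The invasive arrays lay close together and far from the PIN arrays. The means were 2.13 ± 0.21 (SD, n = 6) and 0.05 ± 0.10 (SD, n = 3), a difference of 2.08 (SE 0.18) or 4.22-fold, and 2.09 without PIN replicate 4. All 3 Marcks clones showed this separation, with differences of 2.29, 1.87 and 2.08.

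Marcksl1 (chr4:129513581-129515981), its smaller relative, had ratios of 0.66 to 1.31 on the invasive arrays with a median of 0.99. PIN replicates 2, 3 and 4 read -0.41, -0.22 and 0.73. PIN replicate 4 was above the lowest invasive array, so the groups overlapped. The difference of means was 0.95 (SE 0.26) or 1.93-fold, and 1.30 without PIN replicate 4. The 2 clones disagreed, since feature 5010 differed by 1.78 (SE 0.35) with no overlap and feature 17186 by 0.13 (SE 0.32) with overlap. On invasive replicate 3 the former read 2.36 and the latter -0.27. The mean of such clones describes neither, and which of them reports the transcript was not tested.

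Ezr (chr17:6738131-6782780), which encodes ezrin, had ratios of -2.19 to -1.53 on the invasive arrays with a median of -1.75. On PIN replicates 2, 3 and 4 they were -0.31, -0.11 and 0.60. All invasive arrays were low, and PIN replicate 4 was the highest of all. The difference was -1.85 (SE 0.24), 3.60-fold lower in invasive stroma, and -1.58 without PIN replicate 4. Of the 5 Ezr clones, 4 lay below every PIN array, with differences of -2.25, -2.23, -2.09 and -1.74. The remaining clone, feature 2628, differed by -0.92 (SE 0.31) and overlapped, with invasive replicate 6 at 0.11. The clone named for both Sytl3 and Ezr differed by -2.63 (SE 0.25), further than any clone named for Ezr alone.

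Msn (chrX:96096045-96168553), which encodes moesin, went the other way from its paralog. Its ratios on the invasive arrays were -0.09 to 1.60 with a median of 1.11, and those on PIN replicates 2, 3 and 4 were 0.03, 0.29 and -0.88. Invasive replicate 3 was the lowest of its group and fell among the PIN arrays. The difference was 1.13 (SE 0.36) or 2.18-fold from 1 clone. Without PIN replicate 4 it was 0.78 and without invasive replicate 3 it was 1.33. That clone was not called when adjusted over all clones.

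Gsn (chr2:35256359-35307902), which encodes the calcium-dependent severing protein gelsolin, had ratios of -2.61 to -0.92 on the invasive arrays with a median of -1.68. The ratios on PIN replicates 2, 3 and 4 were 0.43, 0.44 and -0.53. Invasive replicate 6 was lowest and invasive replicate 2 nearest to the PIN arrays, with no overlap. The difference was -1.85 (SE 0.33), 3.60-fold lower in invasive stroma, and -2.17 without PIN replicate 4. Both Gsn clones gave a like value, -1.74 and -1.95.

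Tmsb10 (chr6:72957347-72958748), a beta-thymosin gene, had ratios of 1.37 to 1.94 on the invasive arrays with a median of 1.73. On PIN replicates 2, 3 and 4 they were 0.33, 0.19 and 0.48. Even the PIN arrays were all above the pool, and the invasive arrays were above them without overlap. The difference was 1.35 (SE 0.19) or 2.55-fold, and 1.43 without PIN replicate 4. Tmsb4x (chrX:167207093-167213479), the gene of the more widespread thymosin beta 4, had ratios of 0.31 to 1.39 on the invasive arrays with a median of 0.87. PIN replicates 2, 3 and 4 read -0.36, 0.13 and -0.33. The groups did not overlap, and invasive replicate 3 lay nearest to the PIN arrays. The difference was 1.04 (SE 0.25) or 2.06-fold, and 0.97 without PIN replicate 4. Each thymosin gene was read by 1 clone, and hybridization of one gene's RNA to the other's clone was not tested.

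Myh9 (chr15:77760585-77842175), the heavy chain of non-muscle myosin IIA, had ratios of 1.29 to 2.50 on the invasive arrays with a median of 1.87. On PIN replicates 2, 3 and 4 they were 0.26, 0.30 and -0.21. Invasive replicate 3 was the lowest of its group and still above every PIN array. The difference was 1.80 (SE 0.26) or 3.49-fold, and 1.64 without PIN replicate 4. Septin11 (chr5:93090995-93182368), a filament-forming GTPase gene, had ratios of 1.47 to 2.92 on the invasive arrays with a median of 2.20. PIN replicates 2, 3 and 4 gave 0.36, -0.06 and -0.13. Here too invasive replicate 3 was the lowest of its group, with no overlap. The difference was 2.18 (SE 0.29) or 4.53-fold, and 2.09 without PIN replicate 4.

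Stmn1 (chr4:134468320-134473843), the gene of the microtubule destabilizer stathmin, differed most on average and varied most between mice. Its ratios on invasive replicates 1 to 6 were 1.91, 2.37, 5.12, 3.20, 1.81 and 1.84, and those on PIN replicates 2, 3 and 4 were -0.43, 0.22 and 0.63. Invasive replicate 3 stood far above the others, and every invasive array was above every PIN array. The means were 2.71 ± 1.29 (SD, n = 6) and 0.14 ± 0.53 (SD, n = 3). The difference was 2.57 (SE 0.63) or 5.93-fold from 1 clone. It was 2.08 without invasive replicate 3 and 2.81 without PIN replicate 4.

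**Figure D1:**
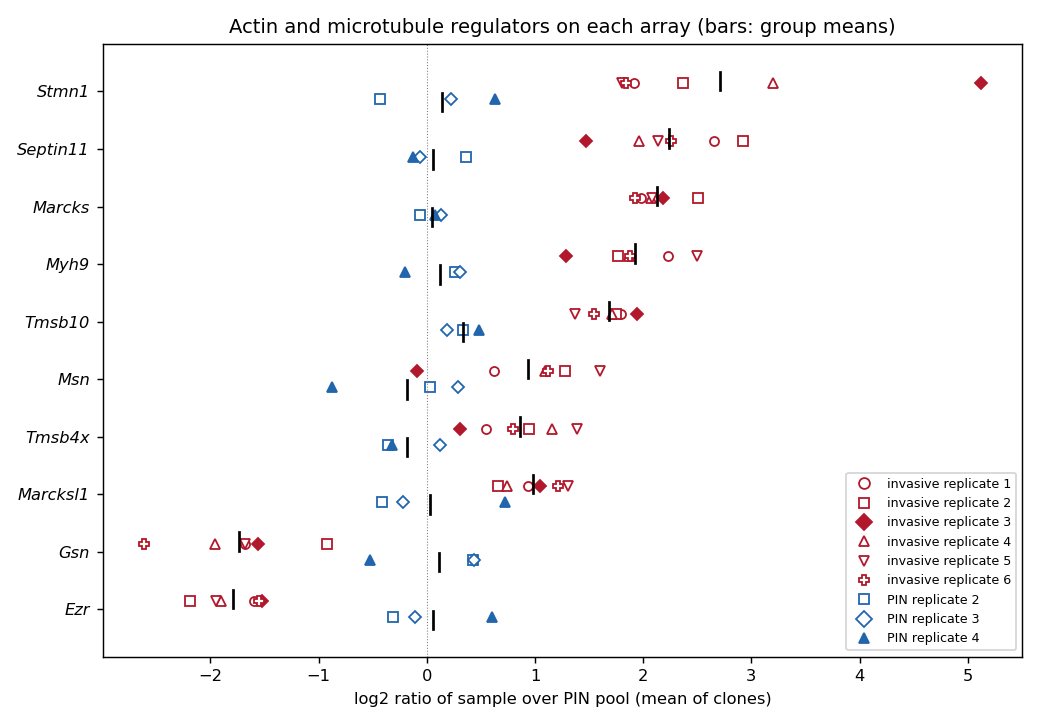
Log2 ratio of each sample over the PIN pool (x axis) for the 10 genes (y axis), with 1 point per array, invasive in red and PIN in blue, and a black bar at each group mean. Ezr and Gsn are the genes to the left of 0, Stmn1 reaches 5.12 on invasive replicate 3, and the groups overlap for Msn and Marcksl1.

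Invasive replicate 3 was therefore lowest of the invasive arrays for Myh9, Septin11, Msn and Tmsb4x and highest for Stmn1, Tmsb10 and Ezr. Marcks had the smallest SE of the 10 differences and Stmn1 the largest. At the level of clones, 15 of the 18 clones were called either way, beside 2.16% of all clones. The direction was that of the gene's mean in all 18. The clones that were not called were Marcksl1 feature 17186, Ezr feature 2628 and the Msn clone. In 6 genes only 1 clone was present, so agreement between clones could be looked at in 4.

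**Figure D2:**
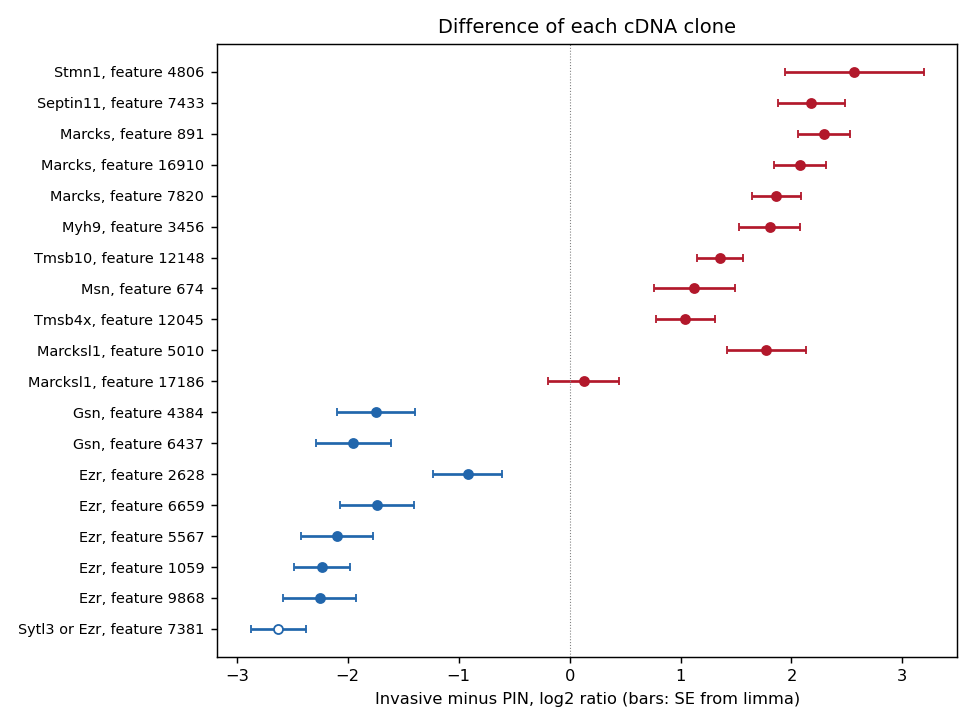
Invasive minus PIN difference of each cDNA clone in log2 ratio (x axis), with limma's SE as bars. Red marks clones of genes with higher ratios in invasive stroma, blue those of genes with lower ratios, and the open point is the clone named for both Sytl3 and Ezr. The 2 Marcksl1 clones lie apart, at 1.78 and 0.13, and Ezr feature 2628 lies nearer to 0 than the other Ezr clones.

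Other genes of the same machinery were taken from 9 lists that hold 215 genes, of which 142 were measured. These lists too were chosen with earlier results of these data known, so their shares and adjusted p-values are a description. With limma and Benjamini-Hochberg adjustment over all 8106 genes, 8 of the 142 (5.63%) were called higher in invasive stroma and 5 (3.52%) lower, beside 3.75% and 1.89% of all genes. At an unadjusted p under 0.05 in limma there were 25 higher and 13 lower, and the share of all genes at that threshold was not counted. The median difference over the 142 genes was 0.10, and that over all genes was 0.02. The invasive arrays were all above the PIN arrays in 11 of the 142 genes, beside 4.86% of all genes. They were all below in 6 of the 142, beside 2.99% of all genes. Most of these genes thus passed no test in either direction. The calls depended on single arrays: without PIN replicate 2 limma called 0 higher and 0 lower (14 and 10 at an unadjusted p under 0.05), and without PIN replicate 3 it called 1 and 0 (16 and 12). Without PIN replicate 4 all 13 called genes kept their sign, at 0.54 to 1.98 for those higher and -3.09 to -0.96 for those lower, and 8 kept their call; Epb41l2, Cfl1, Arpc1b, Lcp1 and Tacc3 lost it. Leaving out invasive replicate 3 gave 23 and 7 calls, and leaving out replicate 2, 4, 5 or 6 of that group gave 3 to 5 higher and 2 to 3 lower.

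Among the ERM and FERM partners 1 of 11 measured genes was called, Epb41l2, a membrane skeleton protein with a FERM domain. It was higher by 1.12 (SE 0.33, adjusted p = 0.123 in limma), with the groups overlapping. Rdx, the gene of the remaining ERM protein radixin, differed by 0.09 (SE 0.19, adjusted p = 0.888 in limma). Slc9a3r1, which encodes the ezrin-binding scaffold NHERF1, differed by -0.55 (SE 0.25, adjusted p = 0.334 in limma). Among 6 septins Septin8 was called, higher by 0.97 (SE 0.24, adjusted p = 0.0766 in limma).

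Of 12 measured gelsolin relatives and capping proteins, 1 was called in each direction. Vill, a villin-like gene, was higher by 0.96 (adjusted p = 0.0620 in limma), and Svil, which encodes the membrane-bound actin and myosin binder supervillin, differed by -1.21 (SE 0.36, adjusted p = 0.129 in limma). Capg, a capping relative of gelsolin that macrophages express, differed by 0.83 (SE 0.33, adjusted p = 0.245 in limma). Of 13 genes of actin monomers and filament turnover, the paralogs cofilin and destrin went opposite ways. Cfl1 was higher by 0.63 (SE 0.18, adjusted p = 0.120 in limma) and Dstn, the smooth muscle-rich relative, differed by -1.16 (SE 0.30, adjusted p = 0.0877 in limma), each without overlap between the groups.

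Among 23 genes of the Arp2/3 complex, WAVE and formins, Arpc1b, an Arp2/3 subunit gene, was higher by 1.28 (SE 0.40, adjusted p = 0.142 in limma). Fhod3, a formin that organizes muscle sarcomeres, differed by -2.79 (SE 0.73, adjusted p = 0.0941 in limma), and its invasive ratios spread from -5.01 to -1.02. Of 29 genes of non-muscle actins, crosslinkers and adhesion plaques, Lcp1, the leukocyte plastin, was higher by 1.82 (SE 0.53, adjusted p = 0.120 in limma). Pdlim7, a PDZ and LIM adaptor on actin filaments, differed by -0.92 (SE 0.20, adjusted p = 0.0522 in limma). The actin genes themselves were not called, Actb with a difference of -0.20 (SE 0.29, adjusted p = 0.815 in limma) over 10 clones and Actg1 with -0.62 (SE 0.21, adjusted p = 0.172 in limma). The groups overlapped for Actb. For Actg1 every invasive array was below every PIN array, with -0.14 as the highest invasive and -0.08 as the lowest PIN ratio. Its 2 clones differed by -0.74 and -0.51.

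Among the non-muscle myosins Myh10, the heavy chain of non-muscle myosin IIB and paralog of Myh9, was higher by 1.18 (SE 0.25, adjusted p = 0.0480 in limma). Its lowest invasive ratio was 0.46 and its highest PIN ratio 0.07, so the groups did not overlap. Myl6, a light chain shared by non-muscle and smooth muscle myosin, differed by -1.01 (SE 0.30, adjusted p = 0.130 in limma). None of the 6 protein kinase C and calmodulin genes that act on MARCKS was called by limma. At an unadjusted p under 0.05 there was 1, Prkcd, at 0.58 (SE 0.26, adjusted p = 0.315 in limma). Of 23 microtubule regulators Tacc3, which stabilizes the mitotic spindle, was called, higher by 0.80 (SE 0.22, adjusted p = 0.103 in limma). Its 3 clones ranged from 0.25 to 1.63. Of all called related genes, only Svil, Cfl1 and Tacc3 had more than 1 clone. The groups overlapped for Epb41l2, Svil, Arpc1b, Lcp1 and Myl6.

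**Figure D3:**
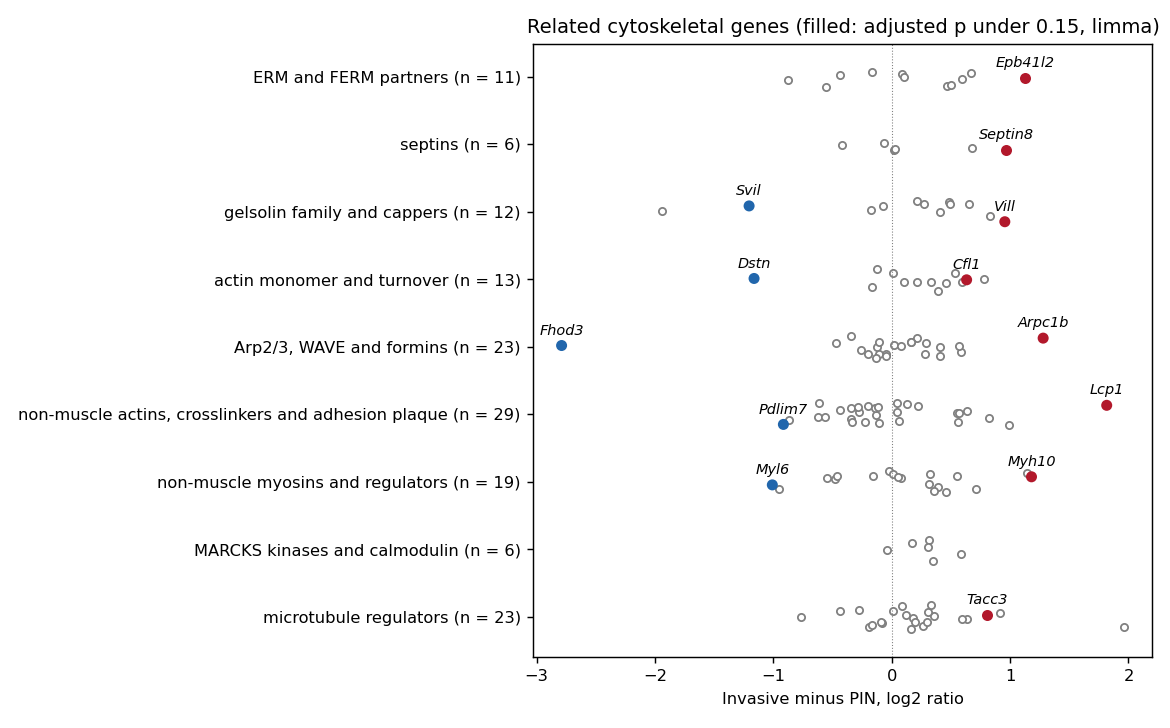
Invasive minus PIN difference in log2 ratio (x axis) of 142 measured genes in 9 lists of related cytoskeletal genes (y axis, n genes each). Filled points were called by limma at an adjusted p under 0.15, red for higher and blue for lower, and are named. Each list holds at most 1 call in each direction, and Fhod3 at -2.79 is the called gene farthest from 0.

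Several cell types can carry these transcripts, and their markers moved between the groups. The marker lists were also chosen with earlier results of these data known. Over all genes, limma called 3.75% higher and 1.89% lower. Those calls depended on single arrays, and the 457 genes called became 37 without PIN replicate 2 and 91 without PIN replicate 3. Marker calls without these arrays were not counted. Of 8 measured macrophage markers out of 21 listed, 7 were called higher by limma, the list's median ratio being 0.58 to 2.69 in invasive and -0.47 to 0.41 in PIN stroma. Of 14 measured fibroblast markers out of 17, 6 were called higher (0.26 to 1.35 against -0.62 to 0.34). Of 7 measured smooth muscle markers out of 14, 4 were called lower (-3.91 to -0.34 against -0.58 to 0.32). Of 23 measured proliferation genes out of 29, 10 were called higher (0.30 to 1.91 against -0.19 to 0.11). The called macrophage, fibroblast and proliferation markers were thus all higher and the called smooth muscle markers all lower.

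Of 11 measured epithelial markers out of 18, only Krt7 was called, higher, with list medians of -1.22 to -0.11 in invasive and -0.96 to 0.62 in PIN stroma. PIN replicate 4, the array with the highest Ezr ratio, also had the highest epithelial median of all 9 arrays. PIN replicates 2 and 3 had epithelial medians of -0.96 and -0.85, inside the invasive range. Their Ezr ratios were -0.31 and -0.11, above every invasive array. Of 7 measured neuroendocrine markers out of 16, Foxa2 was called higher (0.46 to 2.12 against -0.02 to 0.66), and of 8 measured endothelial markers out of 14, Esam and Emcn were called higher (0.33 to 1.59 against -0.06 to 0.10). Ratios to a pool do not show which of these markers, Acta2, Krt8, Ptprc and others not measured here included, were absent from a sample. The contribution of these cell types to the values of the 10 genes was not tested.

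Among the 6 invasive arrays, replicate 3 was lowest for the medians of the macrophage, fibroblast and endothelial markers, and highest for those of the proliferation, neuroendocrine, smooth muscle and epithelial markers. Within the 6 invasive arrays each of the 10 genes was set against each of the 7 marker medians, 70 relations in all, by an exact permutation test over the 720 orders, two-sided. None passed after adjustment (smallest adjusted p = 0.340 for Pearson and 0.583 for Spearman coefficients), and 7 had an unadjusted Pearson p under 0.05 and 4 an unadjusted Spearman p under 0.05. With 720 orders the smallest possible p is 0.00139 for Pearson and 0.00278 for Spearman, and a single relation at that p would be adjusted to 0.0972 or 0.194, so 6 arrays could hardly pass this test. Msn went with the macrophage median at r = 0.92 (Spearman coefficient 0.89, exact permutation p = 0.00972 and 0.0333, adjusted p = 0.340 and 0.583, n = 6), and at r = 0.40 without invasive replicates 1 and 3, so the relation rests on them. Tmsb4x, a transcript abundant in leukocytes, went with the same median at r = 0.79 (Spearman 0.83, exact permutation p = 0.00694 and 0.0583, adjusted p = 0.340 and 0.583, n = 6), with r = 0.57 without these arrays.

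Stmn1 went with the proliferation median at r = 0.88 (Spearman 0.60, exact permutation p = 0.0458 and 0.242, adjusted p = 0.472 and 0.803, n = 6), and r was 0.41 without invasive replicates 1 and 3. Myh9 ran against the proliferation median at r = -0.88 (Spearman -0.89, exact permutation p = 0.0361 and 0.0333, adjusted p = 0.472 and 0.583, n = 6), with r = -0.99 over the 4 arrays left. Septin11 went with the fibroblast median at r = 0.78 (Spearman 0.94, exact permutation p = 0.0181 and 0.0167, adjusted p = 0.421 and 0.583, n = 6), but r was 0.16 without invasive replicates 2 and 3. It also went with the endothelial median at r = 0.82 (Spearman 0.60, exact permutation p = 0.0472 and 0.242, adjusted p = 0.472 and 0.803, n = 6), and r was -0.07 without the same arrays. Stmn1 went with the epithelial median at r = 0.85 (Spearman 0.71, exact permutation p = 0.0347 and 0.136, adjusted p = 0.472 and 0.635, n = 6), and r was 0.32 without invasive replicates 3 and 6. With the neuroendocrine median Stmn1 had r = 0.76 (Spearman 0.83, exact permutation p = 0.0833 and 0.0583, adjusted p = 0.517 and 0.583, n = 6). That r was 0.68 without the same arrays. Against the fibroblast median Stmn1 ran at r = -0.92 (Spearman -0.49, exact permutation p = 0.0653 and 0.356, adjusted p = 0.517 and 0.803, n = 6). That r was -0.48 without invasive replicates 2 and 3. For the genes with lower ratios, Ezr ran against the macrophage median at r = -0.62 (Spearman -0.94, exact permutation p = 0.163 and 0.0167, adjusted p = 0.520 and 0.583, n = 6), and at r = -0.96 without invasive replicates 1 and 3. With the epithelial median Ezr had r = 0.21 (Spearman 0.37, exact permutation p = 0.713 and 0.497, adjusted p = 0.873 and 0.809, n = 6), and r = 0.67 without invasive replicates 3 and 6. Gsn had r = 0.16 (Spearman 0.37, exact permutation p = 0.799 and 0.497, adjusted p = 0.899 and 0.809, n = 6) with the smooth muscle median, and r = 0.69 without invasive replicates 2 and 6.

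**Figure D4:**
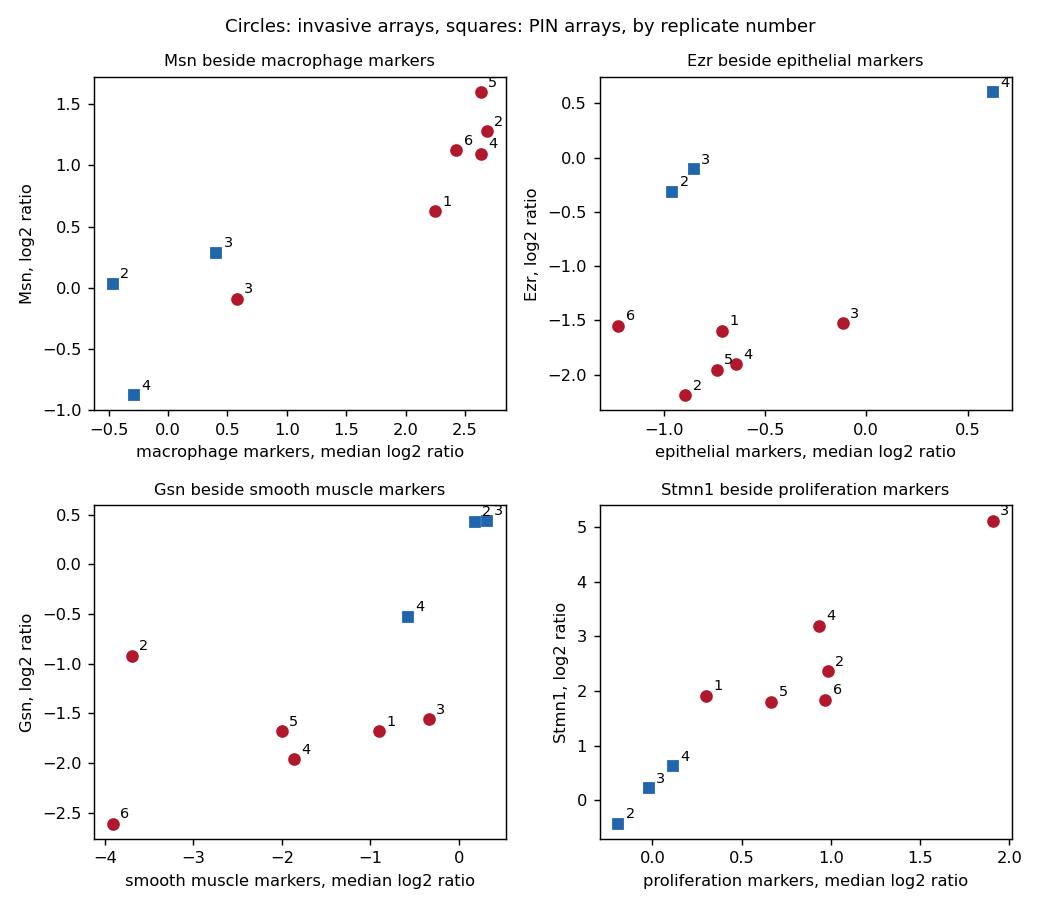
Log2 ratio of Msn, Ezr, Gsn and Stmn1 (y axes) beside the median log2 ratio of macrophage, epithelial, smooth muscle and proliferation markers (x axes), with circles for the 6 invasive arrays and squares for the 3 PIN arrays, numbered by replicate. Invasive replicate 3 lies apart from the other invasive arrays in the panels of Msn and Stmn1, and every invasive array lies below every PIN array for Ezr and Gsn.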

How the data were processed

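Per the labels and the study's methods, amplified stromal RNA (Cy5) and the PIN pool (Cy3) were hybridized to spotted NIA mouse cDNA clones, spots were read in ScanAlyze with no background subtraction, and print-tip group lowess (SMA package) was applied to every array. The authors deposited log2 ratios, sample against pool. Array medians were between -0.0034 and 0.0080. As no spot intensities were used, dim clones were not filtered. The number of arrays limits the precision. The dyes were never swapped, so both groups share any dye effect on a clone.

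Of 17664 rows, 457 held no value and 17163 were complete. The platform's probe list gave a single symbol to 12563 rows, more than 1 to 412 and no symbol to 4689; the latter kinds were tested as clones only. A clone needed a value on 4 or more invasive arrays and 2 or more PIN arrays. The mean of a symbol's clones was taken on each array. Invasive minus PIN was fitted with lmFit and eBayes (limma 3.58.1, R 4.3.3), two-sided, with Benjamini-Hochberg adjustment over all clones or all genes, and an adjusted p under 0.15, the study's false discovery rate, was called. The fit was tested on simulated data.

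The 10 genes and all lists were chosen with earlier results of these data known. Named are the 10 genes with every clone, the called genes of each related list (up to 5, or the 1 of smallest p where none was called), and markers needed to say what a list holds; Rdx, Slc9a3r1, Capg, Actb and Actg1 were added after their values were seen. Relations to marker medians were tested by exact permutation (scipy 1.17.1). Alternatives were the methods' two-sample t-test (run with unequal and, added after the data were seen, with equal variances, since the methods do not say which), array weights, a threshold of 0.05, other normalizations between arrays, complete rows only, other ways to join clones, invasive arrays against 0, a replicate block and leaving out each array.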

Additional observations from a re-analysis of the deposited data

Results flagged for a closer look

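Within the 6 invasive arrays, 3 of 30 groups of values had an array whose gap to its nearest neighbour was a large share of the whole range, where chance alone flags about 1 in 20 groups. The macrophage marker median of invasive replicate 3 was 0.577, with a gap of 0.794 of the range. Its fibroblast marker median was 0.257, with a gap of 0.867 of the range. The clone named for both Sytl3 and Ezr read -2.78 on invasive replicate 2, the lowest of 6, with a gap of 0.671 of the range.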

How the results depend on the processing

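No difference of the 10 genes changed sign under any alternative. With each array scaled, Marcks was 1.88 and Tmsb10 1.16; with quantile normalization Tmsb10 was 1.05, and with invasive arrays against 0 it was 1.69. Taking the clone of largest variance gave Marcks 2.29, Marcksl1 1.78 and Ezr -2.25. Leaving out 1 array gave 2.00 to 2.12 for Marcks, 0.73 to 1.30 for Marcksl1, 1.64 to 1.93 for Myh9, 2.04 to 2.33 for Septin11, -2.03 to -1.58 for Ezr, 0.78 to 1.36 for Msn, -2.17 to -1.67 for Gsn, 1.28 to 1.43 for Tmsb10, 0.94 to 1.20 for Tmsb4x and 2.08 to 2.81 for Stmn1. Of the 10 genes, 5 were called by the methods' t-test with unequal variances (not Ezr, Gsn, Marcksl1, Msn and Stmn1) and 5 with equal variances (not Gsn, Marcksl1, Msn, Stmn1 and Tmsb4x), 7 with the replicate block (not Marcksl1, Msn and Tmsb4x), 8 with quantile normalization and without invasive replicate 4, 5 or 6 (not Marcksl1 and Msn), and 9 with arrays centred or scaled and without invasive replicate 2 or PIN replicate 4 (not Msn). Without PIN replicates 2 and 3 they were 5 and 7. Counts of calls moved most. The 371 clones became 66 by the t-test with unequal variances, 37 by that with equal variances (chosen after seeing the data), 2444 with array weights, 33 with the replicate block, 79 at an adjusted p under 0.05 and 37 to 1179 without 1 array. The 457 genes became 207, 54, 1685, 90, 76 and 37 to 896 in the same order. Related genes called higher, 8, became 5, 0, 32, 1, 1 and 0 to 23, and with arrays scaled 5 and with quantile normalization 3. Related genes called lower, 5, became 1, 1, 15, 0, 0 and 0 to 7, and with arrays scaled 3 and with quantile normalization 3. Beside the 0 by limma with the replicate block, 8 were lower at an unadjusted p under 0.05, beside the 0 at the stricter threshold 13, and beside the 0 without PIN replicate 2 and the 0 without PIN replicate 3, 10 and 12. Beside the 0 called higher by limma without PIN replicate 2 there were 14, and beside the 0 by the t-test with equal variances 23. Counts of clones moved by over 1.5 times without any 1 of invasive replicates 1 to 6 or PIN replicates 2 and 3: 571, 156, 1179, 122, 131, 204, 37 and 68. The cause was not tested. Same-numbered samples came from different mice and their deviations correlated at -0.0858, -0.1 and -0.0187, so the numbers do not pair them. Of 70 relations to marker medians, 7 had an unadjusted p under 0.05, and 1 to 7 did without 1 invasive array (2 without replicate 1, 1 without replicate 3 and 3 without replicate 4); with 5 arrays an exact test has fewer orders. Signal over background is unknown, which limits what can be said of dim clones.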
